A study of Mus musculus with 4 samples.

Results

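The 4 mouse genes of the nuclear factor I family, Nfia, Nfib, Nfic and Nfix, were examined for HOXA5 occupancy in the embryonic lung. They are 4 of 21779 protein-coding genes in the RefSeq table used. Peaks were taken when the summit lay inside the annotated span of a member or within 500 kb of it. This rule uses position and no measured value, but the members were chosen with earlier results of these data known. It selected 16 of the 4289 peaks of replicate 1 and 15 of the 2832 peaks of replicate 2. All positions are in the mm10 build (GRCm38).

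Nuclear factor I proteins bind DNA as dimers at a palindromic sequence and can activate or repress transcription. In mice, loss of Nfib leaves the lungs immature at birth. Nfia and Nfix are best known from the brain, where they act in the formation of glia and in neural progenitors, and Nfix also from fetal muscle. Nfic is best known from tooth root formation. HOXA5 is a homeodomain protein made in the mesenchyme of the developing lung, and homeodomain proteins of its class recognise short sites with a TAAT core.

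The material was lung of E15.5 mouse embryos homozygous for a Hoxa5 allele that encodes HOXA5 with a FLAG epitope (Hoxa5FLAG/FLAG). Chromatin bound by the tagged protein was recovered with an anti-FLAG antibody and sequenced in 2 immunoprecipitates, each with an input library of the same genotype. The sample titles also hold the letters wt, although the genotype is that of the knock-in, and all 4 libraries share it. Peak names inside the list labelled replicate 2 read rep6, and the sample label was followed, so every shared count rests on that label. No untagged control and neither input was analysed here, so a peak of the tagged protein and a site enriched with any genotype cannot be told apart. Whether the pair of replicates stems from different litters is not stated, so their overlap may be technical in part. The values are those of the authors' peak caller. Fold enrichment is the signal at the summit over the caller's background, and −log10 q is the evidence for the peak after correction for the number of sites examined. The read depth is unknown. Values of the 2 lists are given side by side, and a difference between them is not read as a change in occupancy.

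A peak found in both lists, by an overlap of at least 1 bp, is called shared. Of the 16 replicate 1 peaks in the windows, 14 were shared (87.5%, 95% Wilson interval 64.0 to 96.5), beside 51.2% of all replicate 1 peaks. Of the 15 replicate 2 peaks, 14 were shared (93.3%, 70.2 to 98.8), beside 77.6% of that whole list. The intervals treat neighbouring peaks as independent and cover counting error only. They make no allowance for members chosen with earlier results of these data known, so no difference from the whole lists is concluded. Nfib accounted for 9 of the 14 shared peaks, Nfia for 4 and Nfix for 1, while Nfic had none.

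The sequences at annotated starts of 3 members are shown because no peak of either list reached them. RefSeq promoter windows of GRCm38.p6 cover 250 bases before and 50 after an annotated start. They were found for 3 of the 4 members, with 1 window for Nfia, 1 for Nfic and 4 for Nfix. Nfib had no entry. The listed starts of the other members lie inside the gene spans, so starts at the span ends may not be covered. The window of Rtbdn, a neighbour of Nfix, is added because the Nfix-side peak described further on began 141 bp past its end in replicate 1 and 147 bp past it in replicate 2. The 4 windows are Nfia (chr4:97581693-97581992, plus strand), Nfic (chr10:81427124-81427423, minus strand), the Nfix window of highest coordinate (chr8:84780033-84780332, minus strand) and Rtbdn (chr8:84946741-84947040, plus strand). Each is written 5′ to 3′ on the strand of its gene, and capitals mark the homeodomain core TAAT on either strand, where overlapping matches run together.
Nfia: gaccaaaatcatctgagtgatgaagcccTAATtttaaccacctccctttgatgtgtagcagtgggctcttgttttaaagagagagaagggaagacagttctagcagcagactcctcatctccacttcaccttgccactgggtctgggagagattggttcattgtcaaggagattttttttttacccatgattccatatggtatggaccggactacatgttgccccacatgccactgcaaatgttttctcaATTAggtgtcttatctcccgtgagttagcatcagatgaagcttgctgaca
Nfic: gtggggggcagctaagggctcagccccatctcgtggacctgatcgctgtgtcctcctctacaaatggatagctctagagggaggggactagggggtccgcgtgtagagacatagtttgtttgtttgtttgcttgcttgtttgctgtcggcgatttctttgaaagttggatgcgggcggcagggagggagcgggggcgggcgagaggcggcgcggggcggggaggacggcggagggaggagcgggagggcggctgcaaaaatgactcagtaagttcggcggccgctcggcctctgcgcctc
Nfix: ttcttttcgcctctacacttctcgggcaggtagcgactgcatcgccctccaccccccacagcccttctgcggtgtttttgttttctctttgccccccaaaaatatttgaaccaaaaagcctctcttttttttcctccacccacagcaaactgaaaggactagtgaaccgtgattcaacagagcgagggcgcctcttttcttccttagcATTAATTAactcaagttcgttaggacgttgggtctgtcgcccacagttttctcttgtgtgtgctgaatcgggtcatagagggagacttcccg
Rtbdn: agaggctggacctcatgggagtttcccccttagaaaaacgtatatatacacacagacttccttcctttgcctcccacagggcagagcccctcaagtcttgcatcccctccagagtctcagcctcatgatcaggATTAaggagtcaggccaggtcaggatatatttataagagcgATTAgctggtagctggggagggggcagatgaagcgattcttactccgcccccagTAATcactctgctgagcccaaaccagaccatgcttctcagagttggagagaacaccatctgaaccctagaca

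The core TAAT was searched on both strands of these windows. It occurred 2 times in the Nfia window, 3 times in the printed Nfix window and 3 times in that of Rtbdn, and it was not found in the Nfic window. In the other Nfix windows it occurred 0, 3 and 4 times. Of all 32851 promoter windows, 58.0% held at least 1 match, so its presence sets none of these starts apart. The site TGATNNAT, a form recognised by HOX proteins together with PBX cofactors that can overlap the TAAT core, was found in none of these windows, while 8.85% of all windows held it. These letters describe the windows and show no binding.

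Nfib carried the most shared peaks of the 4 genes. Its span on chromosome 4 runs from 82290173 to 82506751 (217 kb), and 4 shared peaks lay inside it. Over all protein-coding genes, 3.25% held at least 1 shared peak and 0.0367% (8 genes) held 4 or more. Of the 2427 protein-coding genes longer than 100 kb, 18.5% held at least 1 and 0.33% held 4 or more. With the 500 kb on either side, Nfib had 11 peaks in replicate 1, 10 in replicate 2 and 9 shared, or 7.4 shared peaks per Mb.

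The peak nearest the lower end of Nfib lay at 82306017 to 82306486, 16.2 kb into the span. Its fold enrichment was 4.23 in replicate 1 and 3.67 in replicate 2, with −log10 q of 14.4 and 11.2. The summits of its calls were 119 bp apart, so it is the in-gene Nfib peak whose position was least well repeated.

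The other 3 peaks inside Nfib stood close together, within 9.2 kb of each other and between 68.3% and 72.5% of the way along the span from its lower end. At 82437834 to 82438359 the fold was 5.38 in replicate 1 and 3.4 in replicate 2. At 82439834 to 82440272 it was 4.08 and 4.55. At 82447161 to 82447505 it was 4.75 and 4.45. Their −log10 q was 27.2, 17.3 and 20.9 in replicate 1 and ran from 10.4 to 17.5 in replicate 2. The summits of the replicates lay 29, 49 and 39 bp apart. The gene table gives spans without exons, so whether these peaks fall in introns or exons was not determined.

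All 4 in-gene peaks were of moderate strength within their lists. Replicate 1 folds of 4.08 to 5.38 were above those of 55.1% to 76.2% of that list, whose median was 3.87. Replicate 2 folds of 3.4 to 4.55 were above those of 51.4% to 78.6%, around a list median of 3.36.

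**Figure D1:**
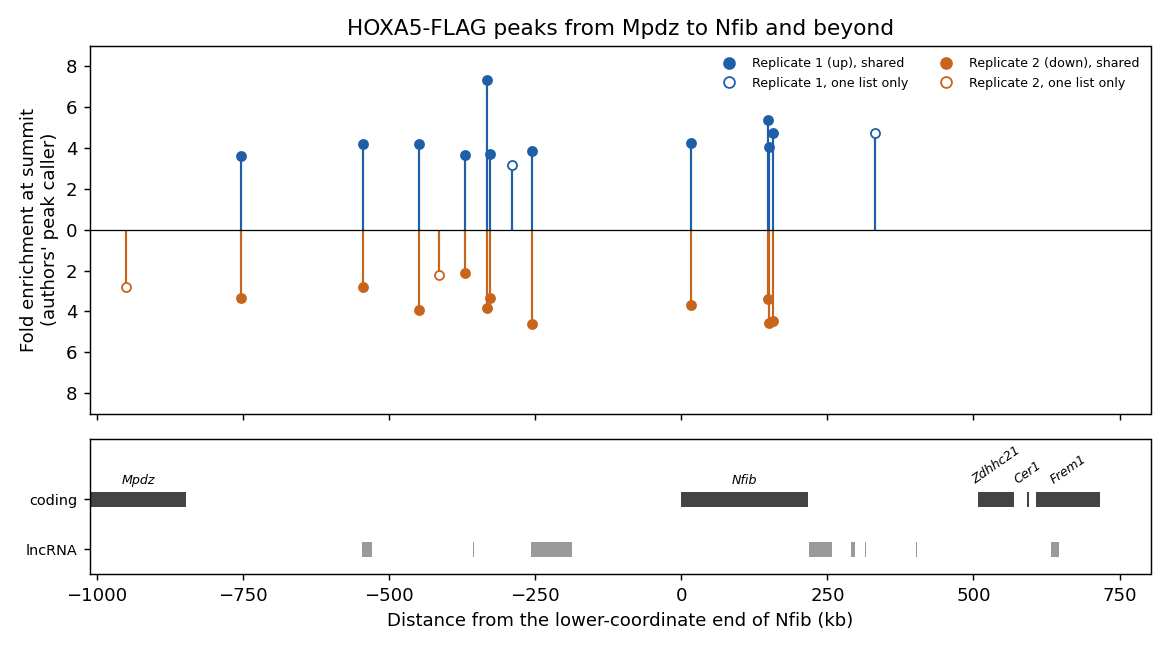
HOXA5-FLAG peaks from Mpdz to 500 kb past Nfib. The x axis is the distance in kb from the lower-coordinate end of Nfib, and stems give fold enrichment at the summit in replicate 1 (upward) and replicate 2 (downward), filled where the peak is shared. Bars below mark protein-coding and long noncoding RNA genes. The gap between Mpdz and Nfib holds 7 shared peaks and the Nfib span 4.

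A row of peaks lay beside Nfib, on its lower-coordinate side, toward Mpdz. Mpdz encodes a scaffold protein with many PDZ domains and is the next protein-coding gene on that side (81278499 to 81442897). The 847 kb between the genes holds 5 non-coding gene entries. In this interval lay 8 peaks of replicate 1 and 8 of replicate 2, of which 7 were shared, or 8.26 per Mb. Mpdz itself held 1 peak, in replicate 2 alone.

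Of the 7 shared peaks between the genes, 5 were within 500 kb of Nfib. The nearest to Nfib, 255 kb away, lay inside the long noncoding RNA gene Gm11264 (82035005 to 82035414). Replicate 1 gave it 3.88-fold enrichment and replicate 2 gave 4.63-fold. A pair followed at 327 and 333 kb from Nfib, with summits 5.64 kb apart. The closer of this pair (81962969 to 81963374) had 3.71- and 3.35-fold enrichment.

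The other of the pair (81957205 to 81957678) was the strongest Nfib-side peak in replicate 1, where its 7.35-fold enrichment and −log10 q of 45.7 stood above 89.1% and 88.0% of the list. In replicate 2 it had 3.81-fold enrichment, above 64.1% of that list, and −log10 q of 13.3. Its summits were 7 bp apart.

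Of the 2 remaining peaks of this side within the window, the one at 370 kb had the lowest folds of these 5 peaks in both lists. At 370 kb (81920010 to 81921337) the fold was 3.68 in replicate 1 and 2.12 in replicate 2, where only 5.33% of peaks had a lower fold. That call was broad in replicate 2 (1328 bp, against 886 bp in replicate 1), and its summits were 530 bp apart. At 448 kb (81841786 to 81842289) the folds were 4.18 and 3.95, with summits 9 bp apart. This site was closer to Mpdz, at 399 kb, than to Nfib.

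Beyond the 500 kb limit the row went on at 545 and 753 kb from Nfib. The peak just outside the limit (81744559 to 81745061), inside the long noncoding RNA gene Gm11412, had 4.19- and 2.81-fold enrichment. The farthest (81536785 to 81537217), 94.1 kb from Mpdz, had 3.61 and 3.32. Neighbouring summits of the row were between 5.64 and 208 kb apart, and the step from the row to the lowest in-gene peak was 271 kb. Inside Nfib the step from the lowest peak to the next was 132 kb. Counting outward from the 4 in-gene peaks, which were all included at the outset, steps of at most 50, 100 or 200 kb reached no peak outside the gene. Steps of up to 300 kb, a limit chosen after seeing the data, joined all 11 into a row of 910 kb.

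The interval was set beside the 695 stretches of at least 500 kb between neighbouring protein-coding genes. Of these, 49.9% held at least 1 shared peak and 0.288% (2 stretches) held 7 or more. The most in any stretch was 8, and none had more shared peaks per Mb than the Mpdz to Nfib interval. This is a description with no test, and the interval was chosen with its peaks known.

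Peaks in 1 list only were few around Nfib. Replicate 1 had a 3.15-fold peak at 81999850 to 82000228, 290 kb below the gene and inside the row. Replicate 2 had a 2.23-fold peak at 81875052 to 81875364, with −log10 q of 2.74, near the lower limit of 2 in the lists. On the upper side of Nfib, toward Zdhhc21, which encodes a palmitoyltransferase, the only peak within 500 kb was a replicate 1 peak of 4.74-fold enrichment at 82622173 to 82622565, 116 kb from the gene. The Nfib window is therefore uneven, with 5 shared peaks on the Mpdz side and none on the other.

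Nfia lies 15.1 Mb above Nfib on the same chromosome (97578066 to 98118876, 541 kb) and had 4 shared peaks in its window, 1 of them inside the gene. All 4 peaks of each list had a partner. Over all protein-coding genes, 49.8% had at least 1 shared peak in such a window and 2.31% had 4 or more. Of those longer than 100 kb, 18.5% held at least 1 shared peak inside the span. Nfia is on the plus strand by its RefSeq promoter window, which allows upstream and downstream to be told.

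A pair of Nfia peaks lay 221 and 224 kb upstream of the 1 listed start, with summits 2.55 kb apart. That start lies inside the span, and the pair was 217 and 220 kb from the span itself. The closer one (97360470 to 97360887) was the strongest Nfia peak in both lists and reached 10.6-fold in replicate 1, with −log10 q of 76.8, and 5.88-fold in replicate 2. These folds were above 94.8% and 90.8% of the respective lists. The farther one (97357912 to 97358296) had 6.23- and 4.12-fold enrichment, which in replicate 2 is below the 4.47 of the peak past the end of the gene. Summits agreed to 8 and 6 bp, and no gene of the table holds either site.

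The peak inside Nfia (97689902 to 97690766), 108 kb downstream of the listed start, reached 4.0-fold (replicate 1) and 3.1-fold (replicate 2). It was the lowest Nfia peak in both lists, with −log10 q of 12.5 and 6.52. Its calls differed in length, 865 bp in replicate 1 and 281 bp in replicate 2, so it is not counted as shared when each call must cover 50% of the other, which leaves 0 inside Nfia. The last peak (98221515 to 98221979) lay 103 kb past the end of Nfia, within the pseudogene Gm12691. It had 5.66- and 4.47-fold enrichment, and Nfia was the nearest protein-coding gene.

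Nfix, on chromosome 8 (84704712 to 84801238, 96.5 kb), held no peak of either list. A single shared peak lay in its window, at 84947181 to 84947528, 146 kb above the span and 167 kb upstream of the nearest listed Nfix start. Replicate 1 gave it 7.42-fold enrichment and replicate 2 gave 7.41-fold. Its −log10 q of 48.6 and 41.5 stood above 89.0% and 92.6% of the lists, and its summits were 9 bp apart.

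This peak lay inside another gene. Its summit was 358 bp downstream of the annotated start of Rtbdn in replicate 1 and 349 bp in replicate 2, past the Rtbdn window printed above. Rtbdn encodes retbindin, a riboflavin-binding protein known from the retina. The window of Nfix holds 39 other protein-coding genes, and by position Rtbdn is the nearest of them and Nfix is not.

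Nfic, on chromosome 10 (81396191 to 81431919, 35.7 kb), had no peak of either list inside it or within 500 kb. The nearest summits were 2666 kb below it in replicate 1 and 2367 kb above it in replicate 2. The stretch around it without a peak measured 5436 kb in replicate 1 and 6300 kb in replicate 2. Of all protein-coding genes, 1.89% had no peak of either list within 2000 kb. This limit was not a planned window and lies below the Nfic distances, and genes near each other share such stretches. The share is therefore no measure of how unusual Nfic is. With the read depth unknown, a weak site there below the caller's limit cannot be told from none.

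**Figure D2:**
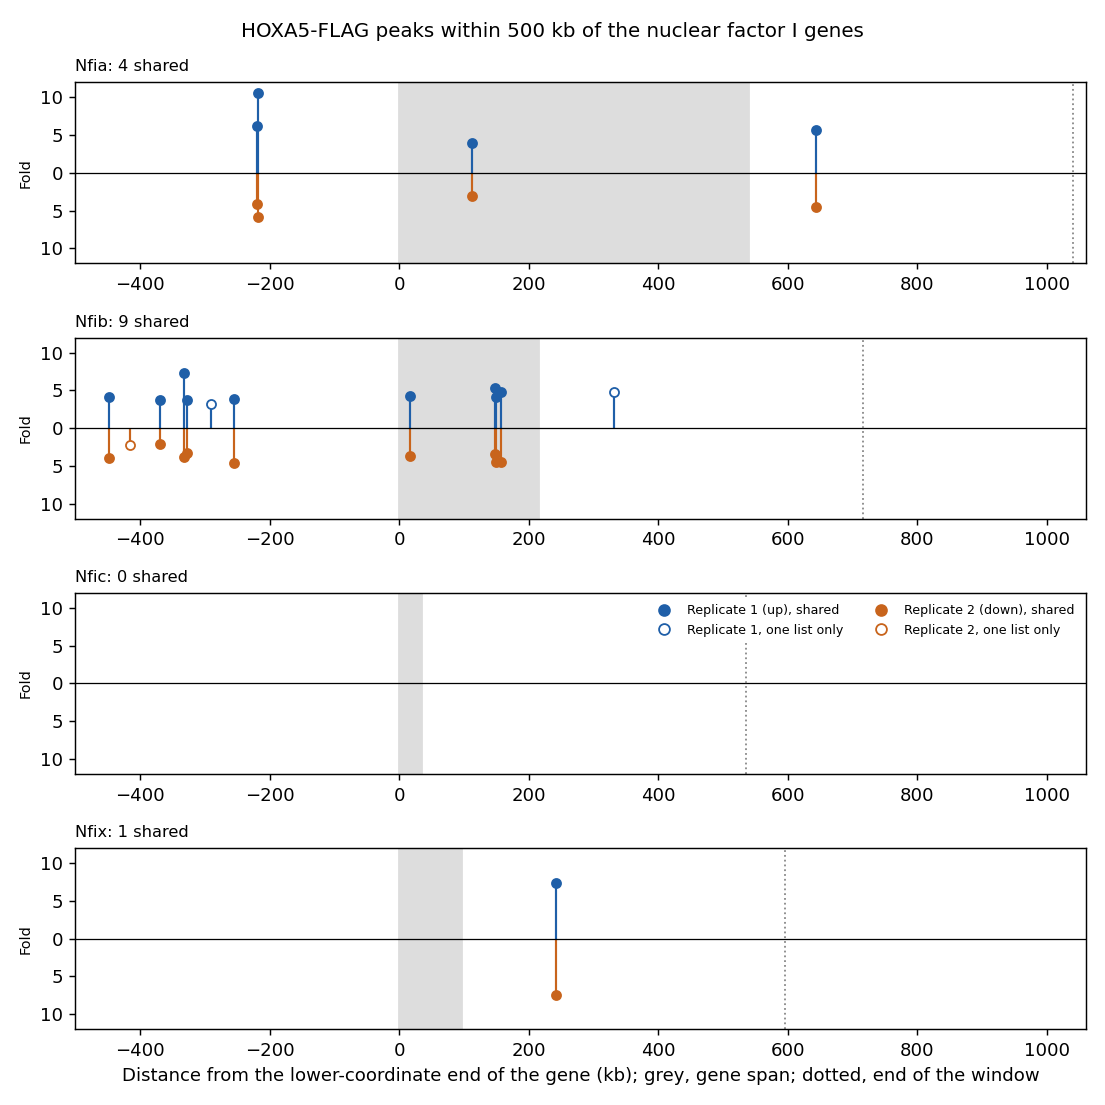
Peaks in the windows of the 4 nuclear factor I genes. The x axis is the distance in kb from the lower-coordinate end of each gene, grey marks the gene span and the dotted line the upper end of the window. Stems give fold enrichment in replicate 1 (upward) and replicate 2 (downward), filled where shared. The shared peaks number 4 at Nfia, 9 at Nfib, 0 at Nfic and 1 at Nfix.

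The paralogues thus ranked Nfib, Nfia, Nfix and Nfic by shared peaks in the window, with 9, 4, 1 and 0. The order was the same by shared peaks per Mb of window, at 7.4, 2.6, 0.912 and 0. By shared peaks inside the span it was Nfib with 4, Nfia with 1, and Nfix and Nfic with 0. Each replicate alone gave the same order, with 11, 4, 1 and 0 peaks in replicate 1 and 10, 4, 1 and 0 in replicate 2. Both lists contain the shared peaks, so these counts are not independent of the shared ones. No test of these differences was made, since each gene is a single locus and neighbouring peaks are not independent.

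Set beside all protein-coding genes, Nfib and Nfia stood at the upper end and Nfix and Nfic did not. The long span of Nfia widens its window to 1541 kb. Its count was above that of 97.7% of genes, and its count per Mb of window above that of 93.4%. For Nfib both shares were 99.9%. The median gene had 0 shared peaks in the window. A count of at least 9, as at Nfib, was reached by 0.0826% (18 genes), which fall in 4 separate stretches since neighbouring genes share peaks. The other stretches hold Lrmda, the HOXA cluster with Skap2 and Evx1, and the predicted genes Gm15319, Gm40469 and Gm21119. Nfic shares its count of 0 with 50.2% of genes, and the 1 of Nfix is shared by 6525 genes.

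**Figure D3:**
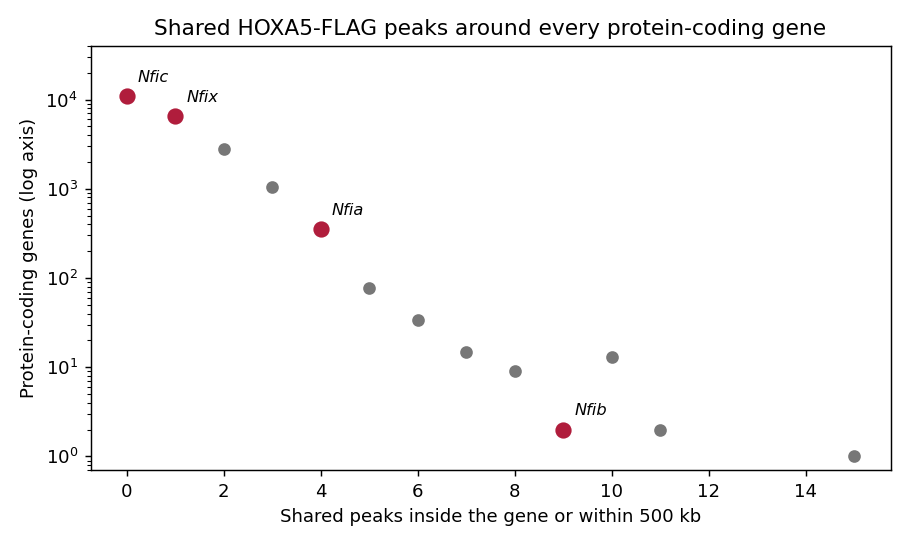
Number of protein-coding genes (log axis) by the number of shared peaks inside the gene or within 500 kb. Red points carry the nuclear factor I genes at 0 (Nfic), 1 (Nfix), 4 (Nfia) and 9 (Nfib), and grey points the other counts that occur.

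Among the windows of Nfib, Nfia and Nfix, the one with the most shared peaks did not hold the strongest peak of either list. The 9 shared peaks of the Nfib window reached at most 7.35-fold in replicate 1 and 4.63-fold in replicate 2. Both the 10.6-fold Nfia peak of replicate 1 and the 7.41-fold Rtbdn peak of replicate 2 were higher. The Rtbdn peak is in the Nfix window, but Nfix is not its nearest gene. Over the 14 shared peaks the median fold was 4.49 in replicate 1 and 4.04 in replicate 2, beside 4.23 and 3.63 for all 2175 shared peaks. The summits of the 14 lay a median of 21.5 bp apart, beside 32 bp for all shared peaks.

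**Figure D4:**
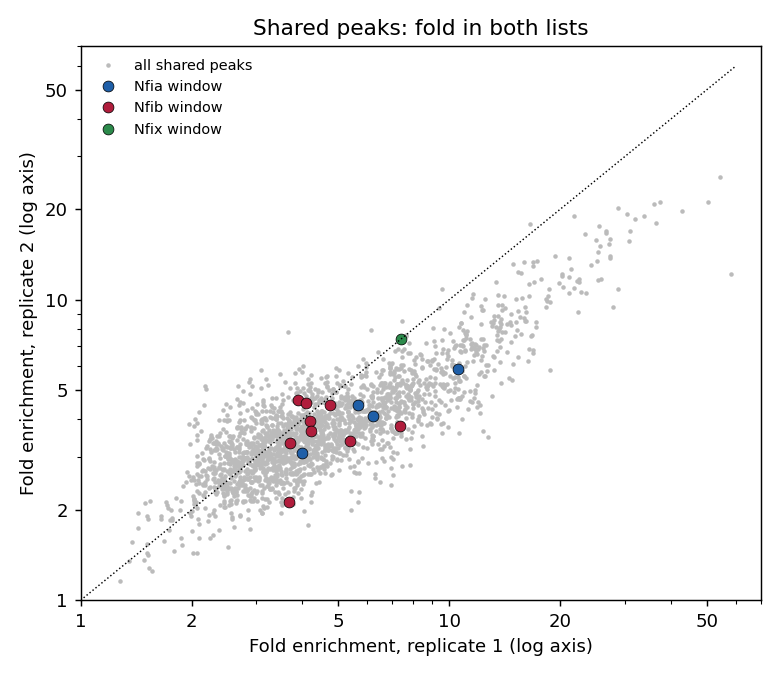
Fold enrichment of each shared peak in replicate 1 (x) and replicate 2 (y), both log axes, with all 2175 shared peaks in grey and the nuclear factor I windows in colour. The dotted line of equal fold is a guide to the eye. Nfib points stay at or below 7.35 in replicate 1, and the strongest Nfia point is at 10.6.

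The limit of 500 kb left out peaks not far beyond it. Above Nfib, a shared site 560 kb away reached 4.05-fold in replicate 1 and 3.0-fold in replicate 2. It lay 13.9 kb from Frem1, an extracellular matrix gene. Below Nfix, a replicate 1 peak of 8.29-fold at 749 kb lay 0.421 kb from Asf1b, a histone chaperone gene. The next replicate 1 peak below Nfia was at 771 kb, with 3.51-fold enrichment. Just inside the limit stood the peak 448 kb from Nfib, to which Mpdz is the nearer coding gene.

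The number of neighbouring genes differed between the paralogues along with the number of peaks. The Nfib and Nfia windows hold 3 and 2 other protein-coding genes, and those of Nfix and Nfic 39 and 52. Of the 2753 protein-coding genes with at most 5 others in the window, 55.5% had at least 1 shared peak there and 3.6% had 4 or more. Of the 6745 with at least 25 others, 39.5% had at least 1 and 0.682% had 4 or more. These limits were chosen after the data were seen, genes near each other share peaks, and the part of gene density in the order of the paralogues was not tested.

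The genes most like Nfib were sought among the 7 other protein-coding genes with at least 4 shared peaks inside the span, by the number of shared peaks per 100 kb of span. Nfib had 1.85. The closest were Ulk4 with 1.87 (6 peaks), Smg6, which encodes a nuclease of nonsense-mediated decay, with 1.68 (4 peaks), and Limch1 with 1.29 (4 peaks). Bcas3 followed with 1.06 (5 peaks) and Lrmda with 0.965 (10 peaks). Ulk4, which encodes a kinase-like protein, was the single gene of the 7 with more per 100 kb than Nfib. Its folds were lower in part, from 2.3 to 4.38 in replicate 1, where those of Nfib went up to 5.38. The highest replicate 1 folds were 6.65 at Smg6, 6.46 at Limch1, 10.5 at Bcas3 and 13.4 at Lrmda. The likeness rests on 1 number per gene from these 2 lists.

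A pair of chosen gene lists covered lung epithelial genes. Whether their members act with or downstream of nuclear factor I proteins was not examined. The first held 12 transcription factors of the lung epithelium, such as Nkx2-1, Foxa1 and Foxa2. Of these, 1 had a shared peak inside or within 100 kb (8.33%), beside 14.7% of all protein-coding genes. It was Klf5, an epithelial zinc finger factor, with a peak 14.8 kb below the gene (chromosome 14, 99282897 to 99284414) of 3.6- and 2.55-fold. Both calls were longer than 1000 bp, at 1264 and 1219 bp.

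The second list held 14 genes of alveolar and airway differentiation, and 2 of them had a shared peak within 100 kb (14.3%), beside the same 14.7%. Sftpb, the surfactant protein B gene, had a peak at 87.6 kb (chromosome 6, 72216680 to 72217220, 3.78- and 2.82-fold), to which Atoh8 was the nearest protein-coding gene. Abca3, which encodes the lipid transporter of lamellar bodies, had a peak at 95.5 kb (chromosome 17, 24255756 to 24256604, 3.55- and 2.89-fold), nearer to Ccnf. The median count within 100 kb was 0 in both lists and over all genes. Within 500 kb, 4 of the 12 transcription factor genes (33.3%) and 8 of the 14 differentiation genes (57.1%) had a shared peak, beside 49.8% of all protein-coding genes. No test of these shares was made.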

How the data were processed

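HOXA5-FLAG occupancy was measured by chromatin immunoprecipitation and sequencing in 2 immunoprecipitates, with 2 inputs not analysed here. The submitters' processing notes name mm10 and, among other tools, Bowtie2 2.5.2 and MACS3 3.0.1, without their roles. Caller settings and the control are not given in the sources. The authors deposited 1 peak list per replicate, each row with a fold enrichment, a −log10 p and a −log10 q at the summit. The deposited score was not used. The depth is unknown.

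Genes were taken from a RefSeq table of GRCm38.p6, leaving out genes with a start below 3 Mb outside chromosome Y, which appeared to be scaffold positions. Chains of overlapping peaks (at least 1 bp) formed shared peaks, placed at the replicate 1 summit. Counts were made with Python 3.11.15 and pandas 2.3.3, and the functions that pair and count peaks were tested on simulated data. No significance test was made. Genes named are the members, protein-coding genes holding or nearest to their peaks, list members with a shared peak within 100 kb, and the 5 genes most like Nfib. Outside this rule, Nkx2-1, Foxa1 and Foxa2 are examples of their list and Zdhhc21 is a neighbour of Nfib. Atoh8 and Ccnf are the genes nearest to list peaks. The members and lists were chosen with earlier results of these data known. Genes beside peaks outside the windows, and the other genes with at least 9 shared peaks, were named after their values were seen. Alternatives covered overlap, −log10 q, length, window, step and single replicates.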

Additional observations from a re-analysis of the deposited data

How the results depend on the processing

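Of 71 alternative values for 10 counts, 66 were within 1.5 times the reported count. The counts of 0 inside Nfix, inside Nfic and in the Nfic window could not change under stricter overlap, summit, −log10 q or length limits. The window of 100 kb at Nfic was fixed at 0 likewise. These fixed values are among the 66 and do not bear on stability. The window of 100 kb left 1 shared peak at Nfia, 4 at Nfib and 0 at Nfix, while 1000 kb gave 12 at Nfib. Requiring each call to cover 50% of the other left 0 inside Nfia, and steps of up to 300 kb, chosen after seeing the data, gave 11 in the Nfib chain. That chain starts from every in-gene peak, so its count of 4 at steps of 50 and 200 kb shows only that no outside peak was reached. Summits within 100 bp left 3 inside Nfib, 7 in its window and 5 between Mpdz and Nfib. A minimum −log10 q of 5 gave 8, as did a length limit of 1000 bp, for the Nfib window. With 1 replicate left out, the peaks of the other list alone numbered 10 and 11 in that window and 8 and 8 between Mpdz and Nfib. Each list contains the shared peaks, so values from 1 list are no independent check of the shared counts. The alternatives for that interval were added after seeing the data. No paired analysis was possible because the result comes from no test and the inputs that share replicate numbers with the immunoprecipitates were not analysed here. Depth limits every absence, since a site below the caller's threshold is not listed.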
